A study of Clonorchis sinensis with 4 samples.

Results

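Among the small RNA tags of the Chinese liver fluke Clonorchis sinensis, those annotated as fragments of small nucleolar RNA (snoRNA) or small nuclear RNA (snRNA) fell into 195 Rfam families, 186 of snoRNA and 9 of snRNA. They were chosen by class alone, as every Rfam entry that the authors' tables class as snoRNA or snRNA, out of 496 Rfam entries and 551 Rfam and known miRNA entries in all. The series holds 4 libraries of total RNA, 1 each of adult worms, eggs, metacercariae (the encysted larva that infects the mammalian host) and extracellular vesicles secreted by adult worms. No treatment, strain or age is given for any of them. With 1 library per group there was no replicate check, so every difference below compares libraries and no test between conditions was made. The adult library held 32 of the families, the egg library 43, the metacercaria library 43 and the vesicle library 164.

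In animals snoRNAs guide the chemical modification of other RNAs, mostly ribosomal RNA in the nucleolus. Box C/D snoRNAs guide methylation of the ribose, box H/ACA snoRNAs guide the conversion of uridine to pseudouridine, and a few, such as U3, take part in cutting and folding the ribosomal precursor. Small Cajal body RNAs do the same for the snRNAs, which form the cores of the spliceosome that removes introns. All of these RNAs are longer than most of the tags counted here. In the vesicle library, where tag lengths were deposited, clean tags ran from 18 to 44 nt and 93.4% of them were 26 nt or shorter, so the tags are read as fragments.

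Levels are given as RPM, the tags of a family per 1000000 tags of the library's header total, with exact 95% Poisson intervals. Header totals, in units of 1000000 tags, were 19.4 for adults, 20.5 for eggs, 20.5 for metacercariae and 2.36 for vesicles. The vesicle library held 3083550 clean tags, more than its header total, so its RPM taken over clean tags would be lower. A count of 0 allows up to 3 tags, which is 0.155, 0.146, 0.146 and 1.27 RPM in that order. Intervals and these limits cover counting error only, since without molecular identifiers a tag is not a separate molecule. The tables give no sequence and no genome position for these families, and a tag that fits 2 related families, such as SNORD61 and U61 or U3 and the plant U3 family, may have been counted under either. A family name records the organism in which that family was defined, not the organism the tag came from.

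Summed over all 195 families, the tags made up 1331 RPM in adults (1315 to 1347), 250.5 in eggs (244 to 257), 112 in metacercariae (107 to 116) and 761 in vesicles (727 to 798). The libraries differed in which families filled these sums. Adults were filled by 1 snoRNA family, metacercariae mainly by the snRNA U6, and vesicles by many snoRNA families. The 5 most abundant snoRNA families of vesicles took 40.9% of its snoRNA tags (38.5 to 43.3). snoRNA took 92.2% of the snoRNA and snRNA tags in adults (Clopper-Pearson 95% interval 91.9 to 92.5), 59.6% in eggs (58.3 to 60.98), 27.2% in metacercariae (25.4 to 29.1) and 92.5% in vesicles (91.2 to 93.7).

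**Figure D1:**
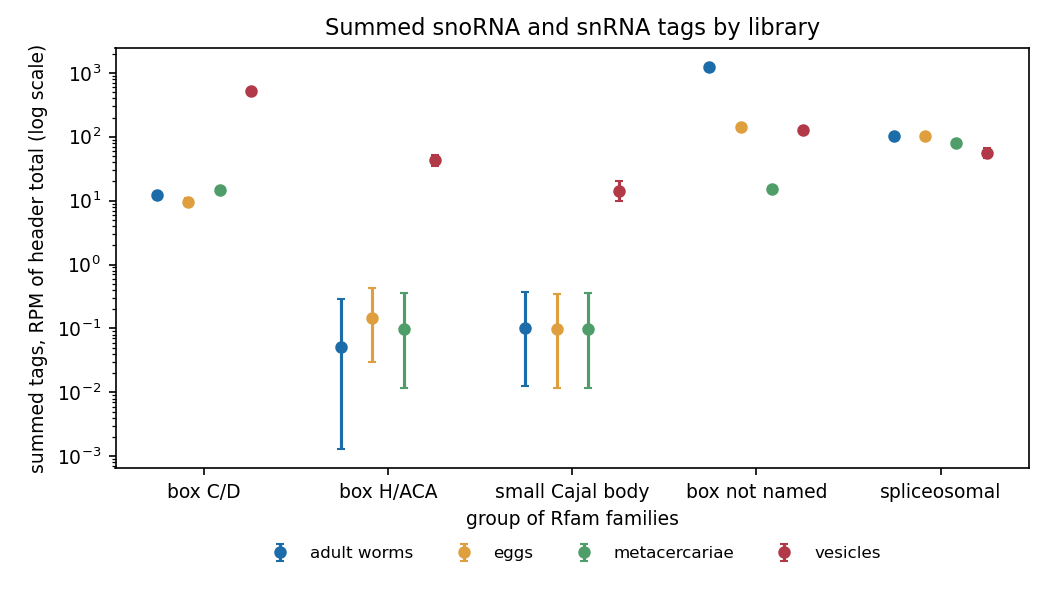
Summed tags of each group of families in RPM of the header total, on a log axis, with 1 point per library and exact 95% Poisson intervals as bars. Spliceosomal tags lie between 56.3 and 104 RPM in every library, while box H/ACA tags lie at or below 0.146 RPM in the 3 stages and at 43.2 RPM in vesicles.

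The family that filled the adult sum was Afu_294, a snoRNA family defined in the mould Aspergillus fumigatus. The adult library held 23084 of its tags, the egg library 2521, the metacercaria library 257 and the vesicle library 26, which is 1190, 123, 12.5 and 11.0 RPM. Adults were highest and eggs next, and the other 2 libraries lay lowest with intervals that overlapped (11.1 to 14.2 RPM in metacercariae and 7.19 to 16.1 in vesicles). Eggs were 9.69-fold below adults (interval of the ratio 9.30 to 10.1) and metacercariae 94.8-fold below adults (83.9 to 108). Eggs stood 9.79-fold above metacercariae (8.60 to 11.2). Of all snoRNA tags Afu_294 took 97.0% in adults (96.7 to 97.2), 82.1% in eggs (80.7 to 83.5), 41.3% in metacercariae (37.4 to 45.2) and 1.56% in vesicles (1.02 to 2.28). A second A. fumigatus family, Afu_455, was listed in adults, with 3 tags. The tables do not link these tags to a genome position. In whole worms, fewer cells of a type and less RNA per cell cannot be told apart.

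A second family, Z101, took the same order over the stages. The adult library held 461 of its tags, the egg library 283, the metacercaria library 22 and the vesicle library 17, at 23.8, 13.8, 1.07 and 7.20 RPM. Metacercariae stood apart as the lowest library. They were 22.1-fold below adults (14.4 to 35.7) and eggs were 12.8-fold above them (8.31 to 20.8), while eggs were 1.72-fold below adults (1.48 to 2.01). The description of neither family names its box. The 43 families that the naming rule used here put in no box summed to 1215, 140, 15.4 and 129 RPM in the same order of libraries, and without Afu_294 to 24.9, 16.8, 2.83 and 118 RPM. In eggs the plant-named family snoR20a added 16 tags, against 1 in adults and 0 in metacercariae. Its egg to adult ratio of 15.1 (2.35 to 634) rests on that 1 adult tag. It was not counted as higher, because after 1 RPM was added to both levels its log2 fold was 0.76, short of the 4-fold size rule described below.

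By header total box C/D families were close to even between the stages, but which stage was higher depended on the scaling. The metacercaria to adult ratio was 1.22 (1.03 to 1.45) here and below 1 under every other scaling tried. It was lowest when libraries were scaled to their Rfam or known miRNA sums. Their 104 families summed to 12.2 RPM in adults (10.7 to 13.8), 9.59 in eggs (8.30 to 11.0) and 14.8 in metacercariae (13.2 to 16.6). Only 3 of them reached 10 tags in any stage. SNORD15 held 87, 73 and 125 tags in adults, eggs and metacercariae (4.48, 3.55 and 6.10 RPM), and SNORD57, a guide that lies in an intron of the snoRNP protein gene NOP56 in humans, held 118, 69 and 93 (6.08, 3.36 and 4.54 RPM). SNORD61 followed with 7, 16 and 29 tags, and SNORD74 held 6 in metacercariae alone among the stages. The order of the stages thus differed between SNORD15 and SNORD57, and the folds among stages stayed at or below 1.81 for both. SNORD15 and SNORD57 together took 86.9% of box C/D tags in adults (81.9 to 90.9), 72.1% in eggs (65.3 to 78.2) and 71.7% in metacercariae (66.3 to 76.7).

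Box H/ACA families were rare in the stages. Of 30 families adults listed SNORA7 with 1 tag, eggs SNORA44 with 2 tags and SNORA47 with 1, and metacercariae the trypanosomatid families TB6Cs1H1 and TB9Cs2H1 with 1 tag each. The sums of 0.0515, 0.146 and 0.0976 RPM have overlapping intervals, with upper ends of 0.287, 0.427 and 0.353 RPM, and cannot be ordered. Box C/D and H/ACA tags therefore stood at 236 against 1 in adults, 197 against 3 in eggs and 304 against 2 in metacercariae. The families described as small Cajal body RNAs held 2 tags in each stage, all of small Cajal body specific RNA 6.

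The spliceosomal snRNAs summed to 104 RPM in adults, 101.1 in eggs and 81.3 in metacercariae. The metacercaria to adult ratio of 0.781 (0.732 to 0.834) depended on the scaling, at 0.283 scaled to Rfam, 0.325 to known miRNAs and 0.127 to Rfam other than rRNA, where it passed the size rule described below as lower. U6 alone gave 0.282, 0.324 and 0.127. U6, the snRNA at the catalytic centre of the spliceosome, held 1979 tags in adults, 2001 in eggs and 1626 in metacercariae, at 102, 97.4 and 79.4 RPM. The egg to adult ratio was 0.955 (0.897 to 1.02), which includes equal levels, and the metacercaria to adult ratio was 0.778 (0.728 to 0.831). U2, which pairs with the branch site of the intron, held 21, 55 and 14 tags in the same order, and U1, which pairs with the 5′ splice site, held 4, 14 and 10. U2 was 2.47-fold higher in eggs than in adults (1.47 to 4.31) and 3.92-fold higher in eggs than in metacercariae (2.15 to 7.63), and neither reached the 4-fold size rule. U4, the partner that holds U6 inactive, was listed with 1 tag in adults, 10 in metacercariae and 0 in eggs, and U5 was listed with 1 tag in eggs alone. U6 alone took 98.1% of spliceosomal tags in adults (97.4 to 98.6), 96.3% in eggs (95.4 to 97.1) and 97.7% in metacercariae (96.8 to 98.3). Of the minor spliceosome, which removes a rare class of introns, U6atac held 9, 2 and 4 tags in adults, eggs and metacercariae. U11 held 3 in adults and 4 in eggs, and U12 held 1 in adults and 1 in metacercariae. None of the 3 had a vesicle tag. U4atac was not listed in any library, and no spliced leader RNA carried either class. In all, 16 families were listed in all 3 stages, and 13 of them also in vesicles. The other 3, at 0 in vesicles, were U6atac, snR79 (2, 5 and 1 tags in adults, eggs and metacercariae) and U61 (12, 18 and 22 tags).

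**Figure D2:**
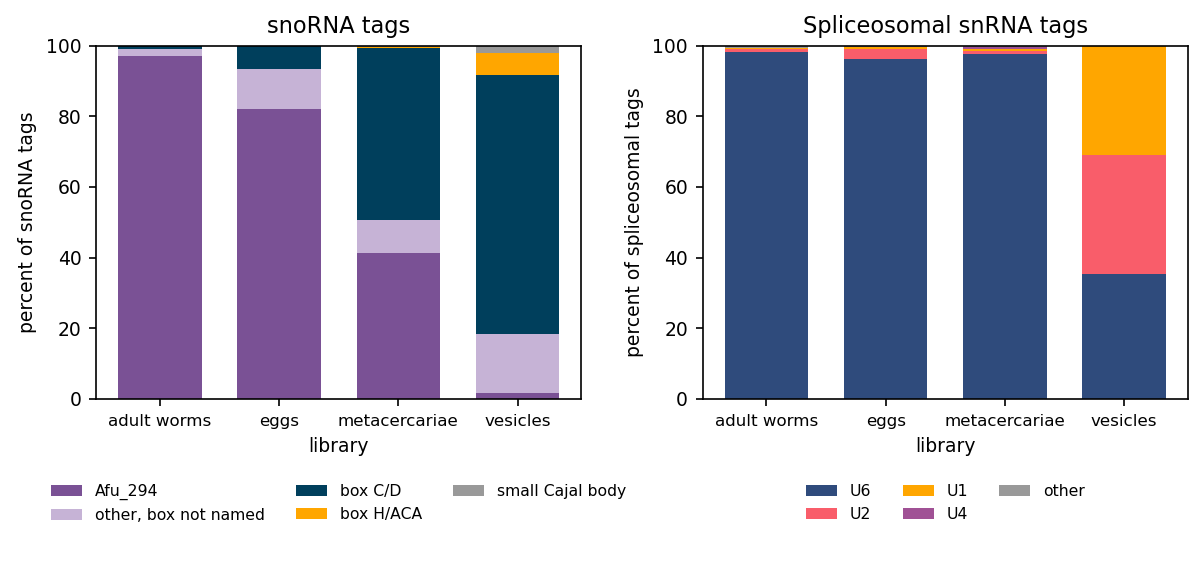
Shares of tags within each library in percent, for snoRNA tags by group on the left and for spliceosomal snRNA tags by family on the right, with 1 bar per library. Afu_294 fills 97.0% of the adult snoRNA bar and 1.56% of the vesicle bar, and U6 fills over 96% of the spliceosomal bar in each stage and 35.3% in vesicles.

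Single families were compared by a size rule with 3 conditions. The ratio had to reach 4 after 1 RPM was added to both levels, the library with more RPM had to hold 10 tags or more, and the whole exact interval had to lie past 2-fold. By this rule eggs against adults gave 0 families higher and 1 lower, Afu_294, among 10 families with 10 tags in either library. Over all 123 Rfam and known miRNA entries with that many tags 11.4% were higher and 8.13% lower. Metacercariae against adults gave 0 higher and 2 lower of 10, Afu_294 and Z101, against 21.9% and 10.9% over all 128 entries. Eggs against metacercariae gave the same 2 as higher and 0 as lower of 11, against 16.4% and 23.9% of 134. The median log2 fold of the families with 10 tags was 0.07, -0.00 and 0.18 in these comparisons, beside 0.21, 0.42 and -0.43 over all entries tested. Counts of 0 to 2 among 10 or 11 families do not stand apart from these shares, but some of these families could not have been counted. With 1 RPM added, a family at a low level cannot reach 4-fold even against 0 tags. An example is snoR20a, with 16 egg tags (0.779 RPM) and 0 metacercaria tags. The same limit applies to low entries behind the shares, so the comparison says little about families at low levels. The comparisons share libraries and are not independent.

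The vesicle library held 164 of the 195 families although the stage libraries were 8.22 to 8.70 times as deep by header total. At the vesicle header total the adult library would be expected to list 13.0 families, the egg library 17.2 and the metacercaria library 16.95. Wide listing in vesicles was general to Rfam: the vesicle library listed 84.1% of the snoRNA and snRNA families and 77.7% of the 301 other Rfam entries, whereas the stages listed 16.4% to 22.1% of the families and 41.5% to 46.5% of the others. Listing in vesicles alone was more common among these families than elsewhere in Rfam. It held for 120 of the 195 families (61.5%), 106 of the 301 other Rfam entries (35.2%) and 45.6% of all 496 Rfam entries. Of the 120, 26 held at least 10 tags. Many vesicle listings rest on little: of all 164 families listed there, 45 held 1 tag, and the median was 3 tags. Besides the families described below, R79 with 27 tags, SNORD20 and sR52 with 26 each and the SNORD55/SNORD39 family with 25 were at 0 in every stage. No family listed in a single stage and nowhere else held more than 5 tags.

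**Figure D3:**
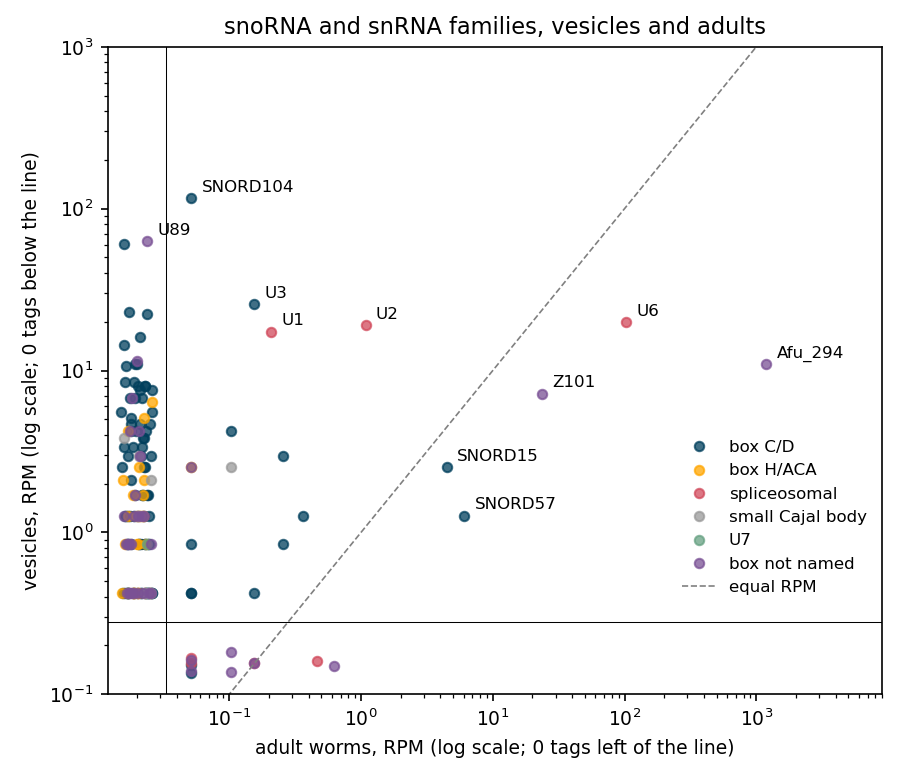
Each point is 1 family, with its level in adult worms on the horizontal axis and in vesicles on the vertical axis, both in RPM on log axes, and families at 0 tags in 1 of the 2 are set with a small random offset in the strips beyond the solid lines, and those at 0 in both are not drawn. Most families lie in the left strip, with 0 adult tags, while Afu_294, U6, Z101, SNORD15 and SNORD57 lie below the dashed line of equal RPM.

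The vesicle values below stand beside a 106-fold higher sum (99.95 to 113) of listed vertebrate miRNA precursor families in the same library than in adults. All Rfam miRNA precursor entries together were also higher in vesicles, at 29628 RPM against 1195 in adults. They stood at 3372 RPM in eggs and 32025 in metacercariae. Box C/D tags led the vesicle library. The 94 listed box C/D families summed to 518 RPM in vesicles (489 to 547), 42.6-fold above adults (37.0 to 49.1), and took 73.5% of its snoRNA tags (71.3 to 75.6) against 0.991% in adults (0.869 to 1.13). SNORD15 and SNORD57, which led the stages, added little to it. The interval of 37.0 to 49.1 covers counting error only. Other scalings tried multiplied every ratio of vesicles to adults by factors from 0.108 (TMM factors) to 1.33 (known miRNA sums), which takes this ratio outside that interval. SNORD104, a methylation guide in vertebrates, held 275 tags in vesicles, 9 in metacercariae, 1 in adults and 0 in eggs. At 116 RPM it was the most abundant member in vesicles, and its ratio to the single adult tag was 2260 (402 to 89585). SNORD44 held 54 vesicle tags and SNORD43 held 53, and each had 1 tag in metacercariae and 0 in adults and eggs. SNORD44 and SNORD43, whose human forms serve as reference RNAs in many small RNA assays, were at least 148-fold and 145-fold higher in vesicles than the 3-tag adult limit allows. Such bounds carry no counting error of the vesicle count, and the exact intervals of the ratios begin lower, at 116 for SNORD44 and 114 for SNORD43. SNORD99 held 34 tags in vesicles, 2 in eggs, 1 in metacercariae and 0 in adults, at least 93.1-fold above the adult limit (exact interval from 71.7). SNORD15 and SNORD57 held 6 and 3 vesicle tags. They were at 2.54 and 1.27 RPM, with ratios to adults of 0.567 (0.202 to 1.28) and 0.209 (0.0425 to 0.626), and took 0.736% of the vesicle box C/D tags (0.337 to 1.39).

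The snoRNAs of ribosomal RNA cleavage and folding, rare in every stage, were all listed in vesicles. U3, which acts at the first cuts of the ribosomal precursor, held 61 tags in vesicles, 8 in eggs, 3 in adults and 2 in metacercariae, and its ratio of vesicles to adults was 167 (54.5 to 833). U8, which vertebrates need for the large-subunit RNAs, held 142 vesicle tags (60.1 RPM) and 0 in every stage, at least 389-fold above the adult limit (exact interval from 312). The plant U3 family and SNORD14, also called U14 and needed for small-subunit RNA, held 19 and 16 vesicle tags, with 1 and 3 in eggs and 0 in adults and metacercariae. SNORD22, U13 and the SNORA73 family held 13, 9 and 3 vesicle tags and 0 in the stages. Together the 7 families of this list summed to 111 RPM in vesicles (98.3 to 126) against 0.155 in adults, 0.584 in eggs and 0.0976 in metacercariae.

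Box H/ACA and small Cajal body families, at most 3 tags per stage, were also listed in vesicles. 28 of the 30 box H/ACA families held 102 tags there (43.2 RPM, 35.2 to 52.4). The ratio to the single adult tag was 838 (147 to 33430). The fullest were the SNORA3/SNORA45 family with 15 tags, SNORA66 with 12 and SNORA18 with 10, all at 0 in the stages, and SNORA7 and the trypanosomatid TB10Cs5H3 held 6 each. All 9 small Cajal body families were listed, with 34 tags in all (14.4 RPM, 9.97 to 20.1), from RNA 16 with 9 tags, RNA 4 with 7, RNA 6 with 6 and RNA 7 with 5 down to RNA 2 with 3 and RNAs 3, 11, 13 and 23 with 1 each. None of these 9, grouped by the words Cajal body in their description, reached 10 tags. U89, a small Cajal body RNA in humans, lay outside that group because its description names neither Cajal body nor box. It held 148 vesicle tags (62.7 RPM), 2 in metacercariae and 0 in adults and eggs. That is at least 405-fold above the adult limit (exact interval from 326). The snRNA U7, which acts on histone messengers and not in splicing, held 2 vesicle tags and none in the stages.

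The spliceosomal snRNAs of vesicles differed from those of adults in their proportions. They totalled 56.3 RPM in vesicles (47.2 to 66.8) and 104 in adults (99.5 to 109), a ratio of 0.542 (0.451 to 0.646) that did not pass the size rule. Under 5 of 6 other scalings the sum passed it as lower in vesicles, at ratios from 0.0587 to 0.133. U6 held 47 vesicle tags (19.9 RPM) and was 5.12-fold below adults (3.84 to 7.00). U1 and U2 held 41 and 45 tags and lay 84.2-fold (30.5 to 324) and 17.6-fold (10.3 to 31.1) above adults. U1 and U2 together took 64.7% of spliceosomal tags in vesicles (55.9 to 72.7) against 1.24% in adults (0.803 to 1.82), 3.32% in eggs and 1.44% in metacercariae. These shares do not depend on how the libraries are scaled, but the calls do: U2 was no longer counted as higher under 5 of 6 other scalings, at ratios from 1.91 to 4.33, and U6 no longer as lower when scaled to known miRNAs, at 0.260.

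**Figure D4:**
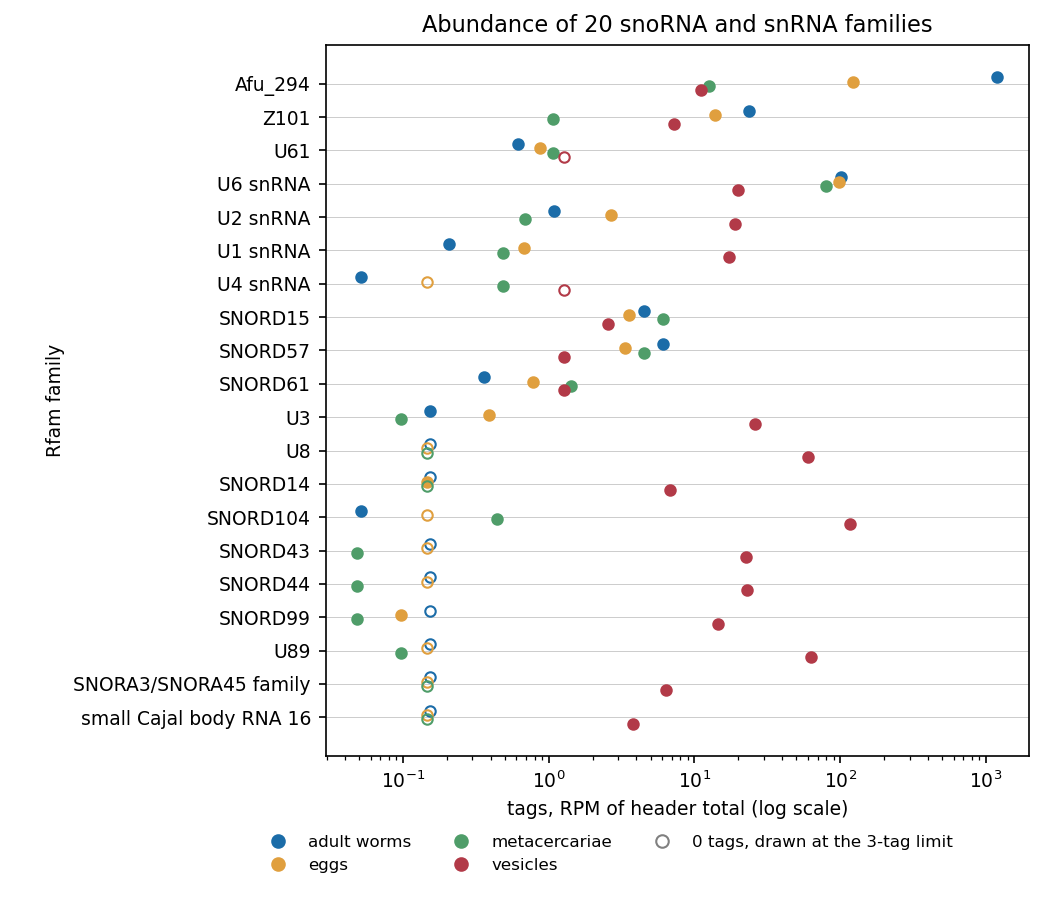
Levels of 20 families in RPM of the header total on a log axis, with 1 filled point per library and an open point at the 3-tag limit where a library had 0 tags. Vesicles lie to the right of every stage for U1, U2, U3, U8, U89 and the SNORD43, SNORD44, SNORD99 and SNORD104 families, and to the left of adults for Afu_294, Z101, U6, SNORD15 and SNORD57.

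By the size rule 40 families were higher and 2 lower (Afu_294, by 108-fold with 73.7 to 165, and U6) in vesicles than in adults, among 46 with 10 tags in either library. The 40 were 30 box C/D, 3 box H/ACA, 5 with no box named, and U1 and U2. Of the 40, 35 had 0 adult tags, at 27.4 to 405 times the 3-tag adult limit (exact intervals beginning at 18.4 to 326), and 26 had 0 tags in every stage. With 10 vesicle tags already at 4.24 RPM, a family at 0 adult tags always passed, so the tag minimum fixed those 35 calls. In the deeper adult library U61, with 12 tags (0.618 RPM) and 0 in vesicles, could not pass as lower. Counts of higher and lower families are thus not like for like, and this also applies to the shares over all entries below. The median log2 fold of the 46 was 2.96, against 2.77 over all 221 entries tested. Over those 221 entries 67.4% were higher and 14.9% lower, so most entries of other classes lay on the same side. Scaling by the median ratio of the 149 entries listed in both libraries multiplied every ratio of vesicles to adults by 0.122, a log2 shift of -3.04. Log2 folds taken after 1 RPM is added, such as these medians, do not move by that constant. Under this scaling 13 families were higher and 5 lower.

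Names built on vertebrate families filled most of the vesicle sum. Of 116 families with vertebrate names 109 were listed in vesicles, with 79.1% of its snoRNA tags (77.0 to 81.0) at 557 RPM, against 12.0, 9.40 and 14.8 RPM in adults, eggs and metacercariae. Families with archaeal sR names summed to 50.4 RPM in vesicles and to between 0.876 and 1.12 RPM in the stages, led by sR55 with 38 vesicle tags and 0 in the stages. In the stages sR24 held 5, 9 and 3 tags and sR46 held 5, 6 and 4 tags in adults, eggs and metacercariae. The same library was high in miRNA precursor families of vertebrates. Of a list of 20 such families 18 matched an entry, of which adults listed 13, eggs 15, metacercariae 16 and vesicles 17. They summed to 6131 RPM in vesicles, 57.7 in adults, 124 in eggs and 54.5 in metacercariae. The liver miRNA family mir-122 held 5577 vesicle tags and 43, 3 and 7 in adults, eggs and metacercariae, while mir-22 had 0 vesicle tags and mir-148 had 1. The list was not uniform: mir-194 was higher in eggs (403 tags, 19.6 RPM) than in vesicles (22 tags, 9.32 RPM). The authors' vesicle catalogue gave 2339266 tags an annotation, 103684 more than the 2235582 mapped to reference scaffolds, which the deposited mapping table names as sequences of C. sinensis and of the flukes Opisthorchis viverrini, Fasciola hepatica and Schistosoma mansoni. It does not say which snoRNA or snRNA tags were mapped. The part of host RNA in the vesicle values was not tested.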

How the data were processed

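Per the labels' protocols, RNA was extracted with Trizol and sequenced from standard Illumina libraries. The authors deposited raw tag counts per entry, with the library total in the header, and RPM values (headed TPM) that equal the count per 1000000 of that total within 0.005 RPM. The deposited counts summed to each header total. No source used here names the aligner, the Rfam release or a build. A second deposited table of each stage gave the same counts for all 195 families, as did the vesicle catalogue for its 164. 1 deposited column of another species was not used.

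A family was put in box C/D by a SNORD, sR or TtnuCD name or as U3, U8 or U13, and in box H/ACA by a SNORA or trypanosomatid H name. The remaining snoRNA families outside the small Cajal body group, U61 among them, were left without a box, although they may belong to either. Ratios have exact conditional binomial intervals. Families were named as the 5 most abundant of each group and library, the 5 largest folds each way with a mean of at least 10 RPM, and members of fixed lists. SNORD99, SNORD20, SNORD55/SNORD39, sR55, sR52, R79, U61, snR79, snoR20a, U7 and Afu_455 were added after their values were seen. The members and lists were chosen with earlier results of these data known. Other scalings, pseudocounts, tag minimums and folds were tried as alternatives. Tools were Python 3.11.15, SciPy 1.17.1 and, for TMM factors, edgeR 4.0.16.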

Additional observations from a re-analysis of the deposited data

How the results depend on the processing

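With 1 library per group leaving out a replicate was not done. No paired analysis was possible because each group holds 1 library and the labels give no replicate numbers. Lists of 1 to 3 tags limit most families, and levels near the 3-tag limit cannot be ordered.

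Most ratios kept their side of the size rule, but the ratios themselves often moved. Among 112 alternative values of group ratios with the same call, 40 moved by over 1.5 times and 12 lay on the other side of 1, where at least one interval of the pair included 1. Among 353 of named families, 156 moved by over 1.5 times and 40 lay on the other side of 1. Spliceosomal tags in eggs against adults went to 1.84 (1.24 to 2.78) without U6, and in metacercariae against adults U1 went from 2.37 to 0.386 and SNORD61 from 3.92 to 0.639 scaled to Rfam other than rRNA. The causes were not tested. In counts of families, a pseudocount of 0.1 RPM gave 1 higher in eggs against adults and 1 lower in eggs against metacercariae. Scaling to Rfam entries other than rRNA gave 4 lower in metacercariae against adults and 4 higher in eggs against metacercariae, and a pseudocount of 10 RPM gave 1 in each. For vesicles against adults the higher families numbered 24 scaled to all Rfam entries, 15 to Rfam entries other than rRNA, 13 with TMM factors, 13 with median ratios, 25 with median ratios over entries of 10 tags in both, 3 with a pseudocount of 10 RPM, 6 with at least 50 tags and 5 among entries listed in both libraries. The lower families numbered 5 under each of those 5 scalings, 1 scaled to known miRNAs, 1 with a pseudocount of 10 RPM and 4 with a fold of 2. 

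Box C/D reversed between metacercariae and adults, at 0.442 scaled to Rfam, 0.199 to Rfam other than rRNA and 0.507 to known miRNAs, as did SNORD15 at 0.493, 0.222 and 0.566. Between eggs and metacercariae box C/D reversed to 3.14 and 1.68, and SNORD15 to 2.83 and 1.51, scaled to Rfam other than rRNA and to known miRNAs. Scaled to Rfam other than rRNA, spliceosomal tags passed the rule at 0.127 in metacercariae against adults and 6.04 in eggs against metacercariae. In vesicles against adults they passed it at 0.112, 0.0705, 0.0587, 0.0659 and 0.133 under the 5 scalings other than known miRNA, and reversed to 18.1 without U6. Families with no box named gave 0.677 in eggs against adults and reversed to 4.75 in vesicles against adults without Afu_294, and box H/ACA gave 49.3 in vesicles against adults over families listed in both. At the vesicle total the stages would list 13.0, 17.2 and 16.95 families, in adults, eggs and metacercariae. Median ratios over entries of 10 tags in both, the ratios of families with no box named, box C/D by SNORD names alone and the expected numbers were chosen after seeing the data.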
